A study of Mus musculus with 4 samples.

Results

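Peroxisomes are small organelles, bounded by a single membrane, that shorten very-long-chain and branched fatty acids, make the first intermediates of ether lipids and break down hydrogen peroxide. Their proteins are made in the cytosol and brought in by peroxins, the products of the Pex genes. Membrane peroxins insert membrane proteins, import receptors carry folded enzymes across a docking complex, a ring of ubiquitin ligases and an ATPase complex release the receptors again, and Pex11 proteins shape and divide the organelle. Brown fat is rich in peroxisomes, and many genes of peroxisomal fatty acid oxidation are known targets of the PPAR family of nuclear receptors. The genes described here are those of peroxisome assembly and peroxisomal lipid oxidation. They comprise each gene whose symbol is Pex followed by a number, together with 21 enzymes, transporters and membrane proteins of the organelle. Each gene had to be named alone by at least 1 probe set of the array. This gave 35 genes, 14 of them Pex genes, of 18193 genes in all.

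RNA came from cells of the stromal vascular fraction, the mixed non-adipocyte cells of fat, taken from the epididymal white fat pad of male mice aged 4 months and grown in culture. Both genotypes in the series were compared, wild-type and Lgr4 homozygous mutant, with 2 arrays each that are described as biological replicates. Lgr4 is a receptor for R-spondins, which strengthen Wnt signalling, and the stated purpose was to ask whether its loss favours brown-like differentiation. All 4 cultures were grown with 10% fetal bovine serum and basic fibroblast growth factor (10 ng/ml). They then received insulin (5 µg/ml), isobutylmethylxanthine (0.5 mM), dexamethasone (1 µM), T3 (50 nM) and troglitazone (5 µM) for 48 h, and insulin, T3 and troglitazone for 6 further days. Troglitazone is an agonist of PPAR gamma, and wild-type and mutant cells alike were exposed to it. No culture was free of the drug, so its effect on these genes was not measured. Neither the kind of Lgr4 allele nor how many animals stand behind an array is given in the sources used here. The p-values therefore reflect the spread between these arrays alone, and that spread may be technical.

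Values are log2 signals, and a difference of 1 is a 2-fold change. The brighter of 2 Lgr4 probe sets read 8.65 and 8.20 in wild-type against 6.18 and 6.09 in mutant cells, in the direction of the labels. The label of adipocytes was checked against markers. For scale, 11.1% of all 13173 genes tested rose and 18.7% fell at a limma adjusted p of 0.05. Of 12 listed adipocyte genes 11 were on the array, and these 11 lay above the signal filter and rose in the mutant, and their summed linear signal was 42055 to 44515 on wild-type and 117498 to 119042 on mutant arrays. Of 9 brown adipocyte genes 6 were tested. Ucp1, Elovl3, Cox7a1 and Cox8b rose, Prdm16 (0.19) and Dio2 (0.17) did not pass, and Cidea, Ppargc1a and Ppara lay below the filter. Ucp1 read 4.99 and 5.86 in wild-type against 8.17 and 7.49 in mutant cells, and Ppargc1a 4.85 and 5.02 against 6.86 and 6.83. Ucp1 was above the filter through its mutant arrays alone. Elovl3 read 5.70 and 6.44 in wild-type against 10.25 and 10.22 in mutant cells, and its wild-type mean (6.07) lay below the filter. Macrophage markers were strong on every array. All 12 lay above the filter, 7 fell, and their summed signal was 107097 to 113633 in wild-type and 90921 to 91543 in mutant cultures. Of 8 progenitor markers 4 fell (32653 to 33485 against 26808 to 27812). Of 6 endothelial markers tested 1 rose (1148 to 1181 against 1246 to 1454), and of 4 mesothelial markers none passed in limma and 1 had an unadjusted p under 0.05 (837 to 991 against 833 to 859). In the hepatocyte list Cyp2e1 alone of 3 tested genes rose, Alb and Fgb lay below the filter, and the sums were 349 to 374 and 920 to 1059. Cyp2e1 too was above the filter through its mutant arrays alone (5.75 and 5.29 in wild-type against 9.17 and 9.44 in mutant cells). The part of these shifts in the differences below was not tested, and in bulk RNA more cells of a type and more RNA per cell cannot be told apart.

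Peroxisomal genes were mostly higher in the mutant cultures. Of the 35 genes, 34 passed the signal filter (a mean log2 signal above 6.13). Of these 34, 22 rose and 2 fell at a limma adjusted p of 0.05, and 10 did not pass. Acaa1b was above the filter through its mutant arrays alone, and of the other 33 genes 21 rose and 2 fell. Over all 13173 genes tested 29.8% passed, 11.1% by rising and 18.7% by falling, against 64.7% and 5.88% of the 34. A rise of at least 2-fold was seen in 10 of the 34 and in 2.88% of all genes tested. Both mutant arrays lay above both wild-type arrays in 26 of the 34 genes (28.9% of all tested) and below them in 4 (39.9% of all tested). The median difference was 0.484 for the 34 genes and -0.0348 for all genes tested. The summed linear signal of the 35 genes was 28970 and 26636 on wild-type arrays, against 50430 and 49246 on those of the mutant. The gene that missed the filter was Acox2, a branched-chain acyl-CoA oxidase, which read 6.02 and 5.80 in wild-type against 6.00 and 6.07 in mutant cells.

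**Figure D1:**
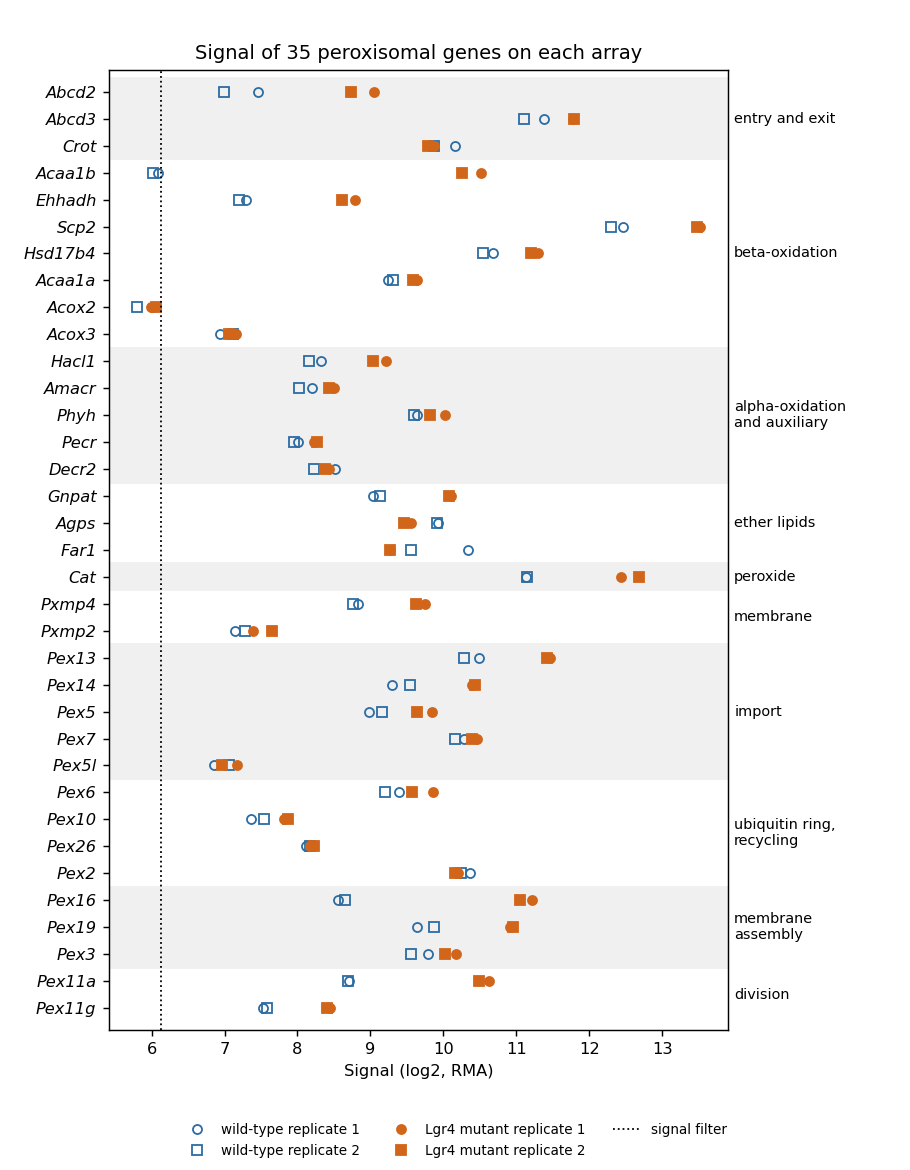
Log2 signal of the 35 genes on each array, grouped by role, with open symbols for the 2 wild-type and filled symbols for the 2 mutant arrays and a dotted line at the signal filter of 6.13. Levels of different genes come from different probes and are not comparable; within a gene, the mutant symbols of Acaa1b, Pex16 and Pex11a stand far to the right of the wild-type ones, those of Agps and Far1 to the left.

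Transporters that bring fatty acids into the organelle rose, and the enzyme that prepares shortened products for export did not pass. Abcd2 is a membrane transporter of very-long-chain and polyunsaturated acyl-CoA. It read 7.46 and 7.0 in wild-type against 9.05 and 8.74 in mutant cells, a 3.16-fold difference (log2 1.66, SE 0.16, adjusted p = 2.03e-04). The arrays did not overlap, and the gap between the wild-type arrays (0.466) was among the wider ones of the 34 genes. All 4 Abcd2 probe sets were higher in the mutant, by 0.43 to 1.80. Abcd3, the more widely expressed transporter, which also accepts branched and dicarboxylic acids, read 11.38 and 11.10 in wild-type against 11.78 and 11.79 in mutant cells (0.54, adjusted p = 0.00859). Its call ended when a second, dim probe set was averaged in (0.28, adjusted p = 0.0611). Crot, which links medium-chain products to carnitine so that they can leave for the mitochondrion, read 10.16 and 9.87 in wild-type against 9.87 and 9.79 in mutant cells, a difference of -0.19 (adjusted p = 0.258). Its second probe set had the opposite sign (0.21), and its brighter one passed the test only without wild-type replicate 2 (-0.33, adjusted p = 0.0151).

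Within the beta-oxidation spiral 5 of 6 tested genes rose, 1 of which, Acaa1b, passed the filter only through its mutant arrays. The other 4 rose 1.26-fold to 2.73-fold. The largest difference was in Acaa1b, which encodes 1 of the mouse's pair of peroxisomal thiolases, the enzymes of the last step. It read 6.09 and 6.01 in wild-type against 10.51 and 10.26 in mutant cells (4.33, SE 0.11, adjusted p = 2.38e-07). Both wild-type arrays lay just below the signal filter, so this difference is measured against a signal not clearly above background, and no fold is given. Acaa1a, the other thiolase, read 9.24 and 9.30 in wild-type against 9.63 and 9.58 in mutant cells (0.33, SE 0.093, adjusted p = 0.0282). It lost its call when either mutant array was left out, with a difference of similar size (0.31, adjusted p = 0.273 without replicate 1; 0.36, adjusted p = 0.179 without replicate 2). Here and for the genes below, such a fit has a single mutant array, which is assumed to vary like the wild-type pair, and the SE of Acaa1a was 0.174 in it. The thiolase sequences are close enough for the array to hold 2 probe sets annotated to both genes. These were higher in the mutant by 0.97 and 0.86, between the values of the single-gene probe sets. Whether the Acaa1a probe sets also take up Acaa1b RNA was not tested. The Acaa1a rise and the gap between the thiolases carry that limit. The genotype differences of the pair of thiolases were 4.00 apart as measured. With 2 against 2 arrays the exact permutation p (2-sided) cannot go below 0.333, the value found, so that it cannot bear on this gap.

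The other steps showed rises of 1.5-fold to 2.7-fold or no call. Ehhadh, the bifunctional enzyme of the middle steps for straight-chain and dicarboxylic acids, read 7.30 and 7.20 in wild-type against 8.78 and 8.61 in mutant cells (1.45, SE 0.10, adjusted p = 2.97e-05). Hsd17b4, the other bifunctional enzyme, which also handles branched chains and bile acid precursors, was 1.55-fold higher (0.63, SE 0.099, adjusted p = 0.00241), with 10.69 and 10.55 against 11.29 and 11.20. Scp2, whose gene gives a thiolase for branched substrates and a sterol carrier protein, read 12.46 and 12.30 in wild-type against 13.52 and 13.47 in mutant cells (1.12, SE 0.10, adjusted p = 1.12e-04). All 4 Scp2 probe sets were higher in the mutant, by 0.26 to 1.12, although the arrays overlapped for the probe set with the smallest difference. Acox3, an oxidase of the first step for branched substrates, read 6.93 and 7.12 in wild-type against 7.16 and 7.07 in mutant cells, so that its arrays overlapped (0.09, adjusted p = 0.562). Acox2 and Acox3 act at the first step, and the 5 genes measured for later steps are those that rose.

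Promoter sequences are shown for 4 genes, the thiolase pair because its members differed most in size of change, and Cat and Pex11a as risers of other roles. They are RefSeq windows from GRCm38.p6 that run from 250 bases before to 50 bases after the annotated transcript start, 5′ to 3′ on the gene's strand. Capitals mark the nuclear receptor half-site AGGTCA and the CCAAT box, each on either strand. The Acaa1b window is at chr9:119157044-119157343 on the minus strand, that of Acaa1a at chr9:119341044-119341343 on the plus strand, that of Cat at chr2:103485104-103485403 on the minus strand and that of Pex11a at chr7:79743082-79743381 on the minus strand.
Acaa1b: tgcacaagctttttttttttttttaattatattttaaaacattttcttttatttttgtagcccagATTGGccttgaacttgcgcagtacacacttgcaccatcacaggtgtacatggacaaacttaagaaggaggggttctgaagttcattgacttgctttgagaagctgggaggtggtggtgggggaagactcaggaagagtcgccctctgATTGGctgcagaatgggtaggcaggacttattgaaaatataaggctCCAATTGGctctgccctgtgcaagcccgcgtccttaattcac
Acaa1a: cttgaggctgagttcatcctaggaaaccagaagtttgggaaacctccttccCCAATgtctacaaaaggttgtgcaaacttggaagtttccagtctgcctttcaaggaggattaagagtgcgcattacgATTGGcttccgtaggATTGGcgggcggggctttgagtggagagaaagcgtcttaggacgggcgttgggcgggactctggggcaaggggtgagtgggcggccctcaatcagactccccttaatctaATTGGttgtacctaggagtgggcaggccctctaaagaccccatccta
Cat: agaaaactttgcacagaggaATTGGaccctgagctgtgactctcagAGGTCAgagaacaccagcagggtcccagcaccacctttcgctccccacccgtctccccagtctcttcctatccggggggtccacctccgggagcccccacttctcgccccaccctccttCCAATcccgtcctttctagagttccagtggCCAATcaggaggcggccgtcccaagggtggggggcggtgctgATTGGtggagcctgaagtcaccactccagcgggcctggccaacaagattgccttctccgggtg
Pex11a: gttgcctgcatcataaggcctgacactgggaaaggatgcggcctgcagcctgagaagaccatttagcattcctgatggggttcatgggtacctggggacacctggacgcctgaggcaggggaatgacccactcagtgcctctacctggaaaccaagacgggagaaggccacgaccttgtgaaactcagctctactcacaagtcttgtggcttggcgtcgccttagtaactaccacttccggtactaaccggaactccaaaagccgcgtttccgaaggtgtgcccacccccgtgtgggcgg

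PPAR binds, together with RXR, to a direct repeat of the half-site, here searched on both strands as AGGTCA, any 1 base, and AGGTCA again. None of the 28 of the 35 genes that had a window held this exact repeat, which was found in 0.0481% of 27025 genes with windows. The half-site alone, which is contained in the repeat, was found in Scp2, Phyh, Cat and Pex11g, or 14.3% of the 28 against 18.1% of all genes. In Cat it lies at bases 47 to 52 of the window. The CCAAT box was found in 14 of the 28 (50.0%, against 41.1% of all genes), with 4 matches each in Acaa1b, Acaa1a and Cat and none in Pex11a. Of the 4 Acaa1b matches 2 share bases (259 to 263 and 262 to 266). Aligned end to end, the windows of Acaa1b and Acaa1a had 59.0% identical bases, against 52.7% to 57.0% for the other pairs among these 4 windows. The matches describe letters in these windows only.

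Cat encodes catalase, which removes the hydrogen peroxide that the oxidases release. It read 11.13 and 11.15 in wild-type against 12.44 and 12.68 in mutant cells, 2.68-fold higher (1.42, SE 0.11, adjusted p = 4.66e-05), and its second probe set differed by 1.76. The wild-type arrays were nearly identical and the mutant arrays both lay far above them.

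Among enzymes of alpha-oxidation and of side branches, 2 of 5 rose and 3 did not pass. Hacl1, the lyase that removes a single carbon from 2-hydroxy and 3-methyl-branched acids, rose 1.84-fold, from 8.32 and 8.16 to 9.22 and 9.03 (0.88, SE 0.11, adjusted p = 6.75e-04). Amacr, which flips the configuration of methyl-branched acids so that they can be oxidised, was 1.28-fold higher (0.36, adjusted p = 0.0317), a call lost when either mutant array was left out (0.33, adjusted p = 0.245 without replicate 1; 0.39, adjusted p = 0.152 without replicate 2). Phyh, the hydroxylase that starts phytanic acid breakdown, differed by 0.30 (adjusted p = 0.0599) and Pecr, a trans-2-enoyl-CoA reductase, by 0.27 (adjusted p = 0.0584). Both lay just outside the threshold without overlap between genotypes. Phyh was called higher after a second quantile normalization (0.39, adjusted p = 0.0265), in the fit that omitted wild-type replicate 1 (0.33, adjusted p = 0.042) and with the replicate number as a block (adjusted p = 0.0277). Pecr was called higher after a second quantile normalization (0.33, adjusted p = 0.0319), with a 60th percentile filter (adjusted p = 0.0468) and when either wild-type array was left out (0.30, adjusted p = 0.0254 for replicate 1; 0.24, adjusted p = 0.0466 for replicate 2). Decr2, which reduces the double bonds of unsaturated chains, read 8.52 and 8.22 in wild-type against 8.43 and 8.38 in mutant cells, with full overlap (0.04, adjusted p = 0.844).

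The 3 genes of ether lipid synthesis went in opposite directions. Gnpat, which places the first acyl chain on dihydroxyacetone phosphate, rose 2.0-fold, from 9.03 and 9.13 to 10.10 and 10.07 (1.00, SE 0.094, adjusted p = 1.49e-04). Agps, which exchanges that chain for a fatty alcohol and so makes the ether bond, fell from 9.93 and 9.91 to 9.56 and 9.46 (-0.41, SE 0.094, adjusted p = 0.0125). Far1, the reductase that supplies the fatty alcohol, fell from 10.34 and 9.56 to 9.27 and 9.27 (-0.68, SE 0.21, adjusted p = 0.0439). Neither gene that fell overlapped between genotypes, and no other gene of the 34 was called lower.

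Both falls changed with the samples and settings used. The wild-type arrays of Far1 were 0.785 apart, the widest gap within a genotype among the 34 tested genes. The Far1 difference was -0.29 (adjusted p = 0.0289) without wild-type replicate 1 and -1.07 without wild-type replicate 2 (adjusted p = 3.61e-05). Its call ended after a second quantile normalization (-0.60, adjusted p = 0.0663), without the signal filter (adjusted p = 0.0507) and with every probe set tested (adjusted p = 0.0695). All 5 Far1 probe sets were nevertheless lower in the mutant, with differences of -0.31 to -0.68. The Agps probe sets differed by -0.41, -0.21 and, for a dim one with signals of 4.05 to 4.54, 0.33. The Agps call ended with all probe sets averaged (-0.10, adjusted p = 0.412) and when either mutant array was left out (-0.46, adjusted p = 0.0803 without replicate 1; -0.37, adjusted p = 0.169 without replicate 2). The Gnpat difference exceeded that of Agps by 1.42 and that of Far1 by 1.68, each with an exact permutation p of 0.333, the smallest possible here. Over the 3 pairs of genes compared in this way, the adjusted p was also 0.333.

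**Figure D2:**
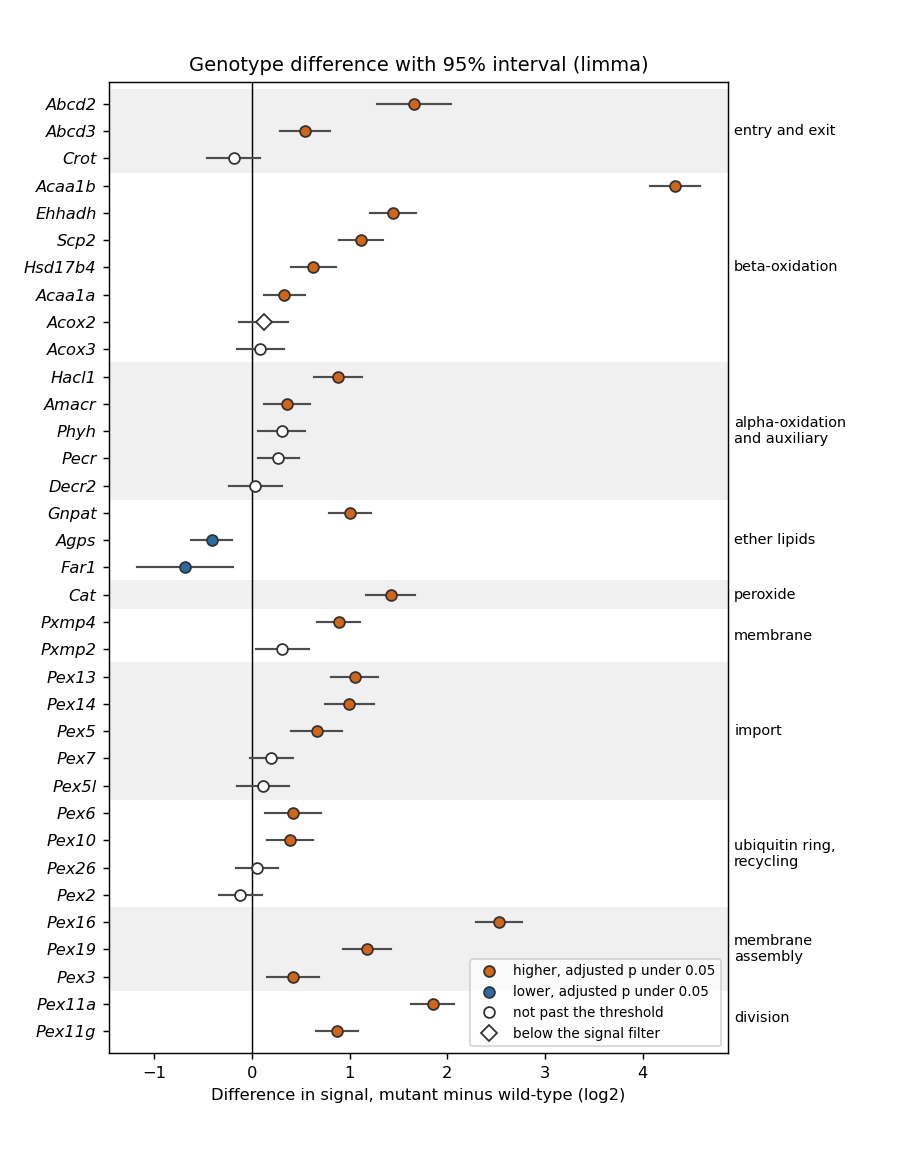
Difference in log2 signal, mutant minus wild-type, for each gene with its 95% interval from limma, grouped by role; orange marks genes called higher, blue genes called lower, white genes not past an adjusted p of 0.05 and the diamond the gene below the signal filter. Acaa1b (4.33) and Pex16 (2.53) stand apart from the rest, and Agps (-0.41) and Far1 (-0.68) are the genes called lower.

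All 3 peroxins of membrane protein insertion rose. Of the 14 Pex genes 10 rose, 4 did not pass and none was called lower by limma, nor was any lower at an unadjusted p of 0.05. Pex16, a membrane peroxin that recruits Pex3 and is needed to build the organelle, read 8.56 and 8.65 in wild-type against 11.21 and 11.05 in mutant cells, 5.77-fold higher (2.53, SE 0.10, adjusted p = 1.36e-06). Its second probe set was dimmer and flat, with 6.84 and 6.84 against 6.83 and 6.89. The mean of these probe sets therefore differed by 1.28 (adjusted p = 5.37e-05). Pex19, the cytosolic chaperone of peroxisomal membrane proteins, rose 2.27-fold, from 9.64 and 9.87 to 10.92 and 10.95 (1.18, SE 0.11, adjusted p = 1.22e-04), and its 3 probe sets differed by 0.66 to 1.24. Pex3, the membrane anchor for Pex19, rose from 9.79 and 9.55 to 10.18 and 10.02 (0.42, adjusted p = 0.0263). Its second probe set differed by 1.03 and the mean by 0.73, while the brighter one lost its call when either mutant array was left out (0.34, adjusted p = 0.228 without replicate 1; 0.51, adjusted p = 0.0529 without replicate 2).

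The docking complex and the main import receptor rose, and the receptor for the less common targeting signal did not pass. Pex13, a docking protein of the import pore, read 10.49 and 10.28 in wild-type against 11.46 and 11.41 in mutant cells (1.05, SE 0.10, adjusted p = 2.07e-04). Pex14, its partner, rose 2.0-fold from 9.30 and 9.54 to 10.39 and 10.43 (1.00, SE 0.11, adjusted p = 3.40e-04). Pex5, the receptor for enzymes with the carboxy-terminal targeting signal, was 1.59-fold higher (0.67, SE 0.11, adjusted p = 0.00344). Pex7, the receptor for the amino-terminal signal carried by thiolase, Phyh and Agps, read 10.28 and 10.16 in wild-type against 10.46 and 10.39 in mutant cells, a small difference without overlap (0.20, adjusted p = 0.153; 95% interval -0.02 to 0.42). It passed only without wild-type replicate 1 (0.26, adjusted p = 0.0479). Pex5l, a relative of Pex5 known mainly from neurons, read 6.86 and 7.06 in wild-type against 7.18 and 6.96 in mutant cells (0.11, adjusted p = 0.502).

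Genes for release of the receptors had the lowest median difference (0.223) of the Pex groups, with 2 of 4 called higher. Pex6, an ATPase that pulls used receptors out of the membrane, rose from 9.39 and 9.19 to 9.85 and 9.57 (0.42, SE 0.12, adjusted p = 0.0342). Its 5 probe sets were all higher in the mutant, by 0.10 to 0.76. The Pex6 call ended without mutant replicate 1 (0.28, adjusted p = 0.331), without wild-type replicate 2 (adjusted p = 0.0533) and with every probe set tested (adjusted p = 0.0528). Pex10, a ubiquitin ligase of the ring, was 1.31-fold higher (0.39, adjusted p = 0.0221), and lost its call without mutant replicate 1 (0.42, adjusted p = 0.124) or 2 (0.37, adjusted p = 0.177). Pex2, another ligase of the ring, differed by -0.12 (adjusted p = 0.392), and its probe sets had opposite signs. Pex26, the membrane anchor of the ATPase complex, read 8.11 and 8.17 in wild-type against 8.17 and 8.23 in mutant cells (0.05, adjusted p = 0.691; 95% interval -0.16 to 0.27).

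Both genes of division that were measured rose. Pex11a, which is the inducible member of the Pex11 family and elongates the membrane before fission, read 8.71 and 8.69 in wild-type against 10.62 and 10.48 in mutant cells (1.85, SE 0.097, adjusted p = 5.71e-06). Its second probe set differed by 1.75. Pex11g rose 1.83-fold, from 7.53 and 7.58 to 8.45 and 8.41 (0.87, SE 0.092, adjusted p = 2.83e-04), and all 3 of its probe sets were higher in the mutant. Of 2 small proteins of the peroxisomal membrane, Pxmp4 rose 1.85-fold, from 8.83 and 8.76 to 9.74 and 9.63 (0.89, SE 0.096, adjusted p = 3.29e-04). Pxmp2, a pore-forming channel protein, read 7.15 and 7.28 in wild-type against 7.39 and 7.66 in mutant cells and did not pass (0.31, adjusted p = 0.0752), except without wild-type replicate 2 (0.38, adjusted p = 0.0275) and with the replicate block (adjusted p = 0.0228).

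**Figure D3:**
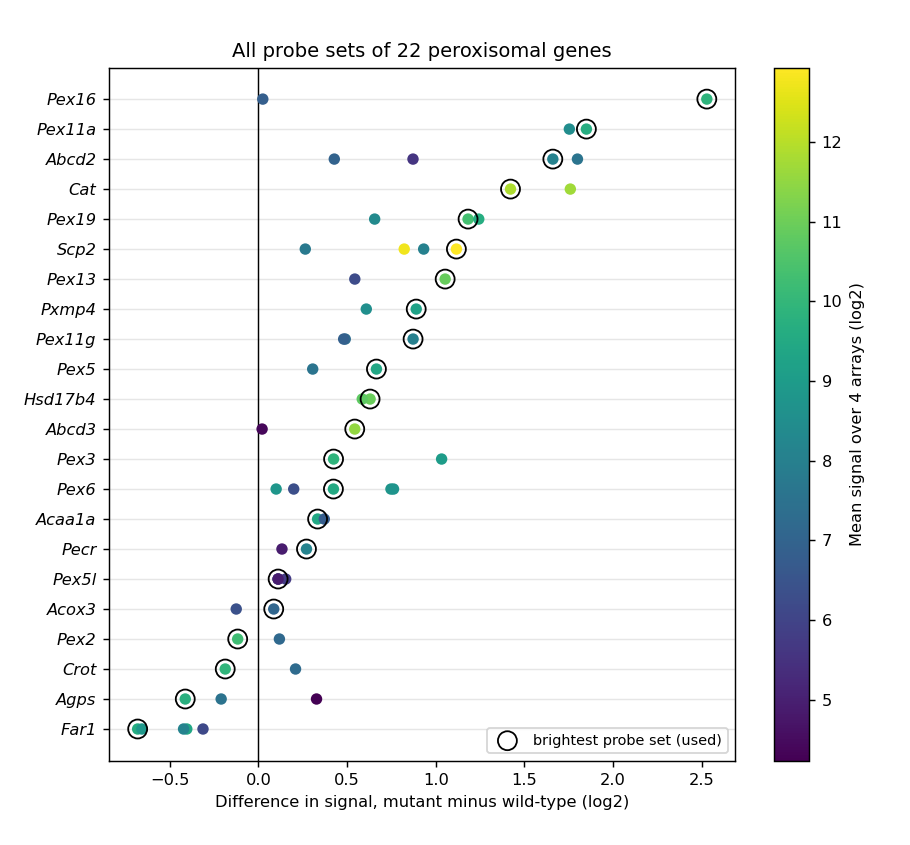
Difference in log2 signal, mutant minus wild-type, for each probe set of the 22 genes with more than 1, coloured by mean signal over the 4 arrays; rings mark the brightest probe set, whose value the text uses. Pex16 and Abcd2 spread by more than 1, and the probe sets of Acox3, Agps, Crot and Pex2 fall on both sides of 0.

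How far a value depends on the probe set could be read for the 22 genes with several, 13 genes having 1. The probe sets of Pex16 were 2.50 apart and those of Abcd2 1.37. For 4 genes, Acox3, Agps, Crot and Pex2, the probe sets had opposite signs, and Agps was the only called gene among them. Spread within a genotype was wider among wild-type arrays, with a median gap of 0.148 over the 34 genes against 0.0838 among mutant arrays, and the wild-type gap was the wider one in 20 of the 34. Over all genes tested these medians were similar, 0.14 and 0.0726. The largest gap within the mutant pair was 0.306, for Abcd2.

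Peroxisomal genes outside this set also rose more often than they fell. The list was written from textbook knowledge and holds 55 further genes, some of whose products also work in mitochondria or the cytosol. Of these, 48 were on the array and 37 passed the filter. In limma 20 of the 37 rose (11.1% of all genes tested), none was called lower (18.7% of all tested) and 17 did not pass. The 20 include Acot4, whose wild-type mean (5.95) lay below the filter. It read 5.71 and 6.19 in wild-type against 7.27 and 7.22 in mutant cells. At an unadjusted p of 0.05, 2 of the 37 were lower. Their median difference was 0.401. The 5 largest rises were in Ephx2, Nudt7, Acbd4, Ech1 and Pmvk. Ephx2, an epoxide hydrolase found in peroxisomes and cytosol, rose from 8.97 and 8.56 to 12.08 and 11.96 (3.26, SE 0.14, adjusted p = 1.87e-06). Nudt7, which breaks down coenzyme A in the organelle, rose by 1.82, Acbd4, a tether to the endoplasmic reticulum, by 1.74 and Ech1, which moves double bonds during oxidation, by 1.60. Pmvk, a kinase of the mevalonate pathway, rose by 1.30. Division factors shared with mitochondria showed no common change, with Mff higher (0.35, adjusted p = 0.0227) and Fis1 (0.04, adjusted p = 0.805) and Dnm1l (-0.02, adjusted p = 0.896) not past the threshold.

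Mitochondrial fatty acid oxidation is the pathway most like this one, and it takes up the shortened chains that peroxisomes release. Of its 18 genes on the array 17 rose in limma (11.1% of all genes tested), 14 of them at least 2-fold (2.88% of all tested). None of the 18 was lower at an unadjusted p of 0.05. When all probe sets of a gene were averaged, 16 were called higher and 1 lower. The median difference was 1.55, against 0.484 for the 34 peroxisomal genes, and this gap was not tested. The largest rises were in the carnitine palmitoyltransferase Cpt2 (1.82), the dehydrogenases Acadl (1.74) and Acadm (1.69), the trifunctional protein subunit Hadha (1.72) and the isomerase Eci1 (1.65). Cpt1a, which commits long chains to the mitochondrion, read 10.75 and 10.74 in wild-type against 10.44 and 10.66 in mutant cells (-0.20, adjusted p = 0.199).

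**Figure D4:**
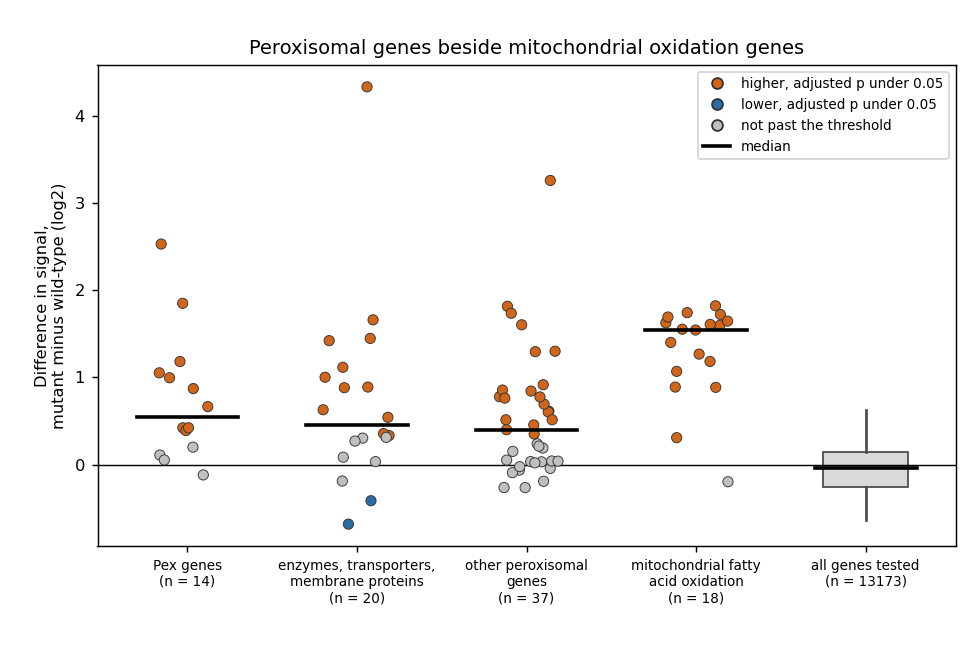
Difference in log2 signal, mutant minus wild-type, for each tested gene of 4 lists, with a bar at the median; for all 13173 genes tested the box spans the quartiles and the lines the 5th to 95th percentiles. Medians were 0.545 for 14 Pex genes, 0.45 for the 20 other genes of the set, 0.401 for further peroxisomal genes and 1.55 for mitochondrial oxidation, where points lie closer together than among the peroxisomal genes.

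The PPAR receptors, their RXR partners and the coactivators Ppargc1a and Ppargc1b were read beside these genes. Of these 8 genes 6 were tested, and Pparg, Rxrg and Ppargc1b rose. Pparg rose from 8.10 and 7.73 to 10.85 and 10.82 (2.92, adjusted p = 2.19e-06), Rxrg by 0.76 (adjusted p = 0.00405) and Ppargc1b by 1.79 (adjusted p = 2.41e-05). The partner receptors Rxra (0.22, adjusted p = 0.123) and Rxrb (-0.04, adjusted p = 0.79) and the receptor Ppard (0.19, adjusted p = 0.253) did not pass. Ppara, the form best known for inducing peroxisomal oxidation in liver, lay below the filter with 5.86 and 5.91 in wild-type against 6.19 and 6.08 in mutant cells. The coactivator Ppargc1a also lay below it, with 4.85 and 5.02 in wild-type against 6.86 and 6.83 in mutant cells. Its difference was 1.91 in the fit without the filter. Whether these receptors have a part in the differences was not tested.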

How the data were processed

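The authors deposited log2 signals per probe set, made with Partek 6.6 and RMA per the submitters' processing notes; that they are log2 was inferred from their range. RMA compresses differences near background and removes differences in total RNA between cultures. Of 45101 probe sets 64 were controls, 34945 named 1 gene, 932 several and 9160 none. Only those naming 1 gene were used, with current names from RefSeq (204 probe sets unmatched there). For each gene the brightest probe set was tested if its mean over 4 arrays exceeded the 40th percentile of probe sets (6.13). The genotype difference was fitted for 13173 genes with limma 3.58.1 (R 4.3.3), without trend, with Benjamini-Hochberg adjustment, a 2-sided threshold of 0.05 and 2 residual plus 6.21 prior degrees of freedom. The value of Acox2 comes from the fit without the filter. The number of arrays limits the precision. Written out with each array's values are genes at least 2-fold changed, genes called lower and the largest and smallest difference of each role; other genes that touch a result are given more briefly. From the further peroxisomal and mitochondrial lists the 5 largest called differences are named; Mff, Fis1, Dnm1l and Cpt1a were added after their values were seen. The genes and lists were chosen with earlier results of these data known.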

Additional observations from a re-analysis of the deposited data

How the results depend on the processing

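Of the 24 called genes, 16 kept their call and direction under all alternatives in which they were tested: a second quantile normalization, centring, no or a stricter filter, averaging or testing all probe sets, a trended variance, the replicate block and leaving out each array. No call reversed. The 8 others are named with their values above. Genes called lower numbered 1 in place of 2 after a second quantile normalization, without the filter, with probe sets averaged and with every probe set tested, and 1 to 3 with an array left out. Genes called higher ranged from 17 to 25 with an array left out. Over all genes these ranges were 809 to 2627 higher and 1042 to 3722 lower, against 1456 and 2468. Of the further peroxisomal genes 2 were lower after centring, 1 with probe sets averaged and 0 to 3 with an array left out, against 0; of the mitochondrial genes 1 was lower with probe sets averaged, against 0. Replicate numbers are shared by the genotypes without a stated pairing, and deviations of same-numbered arrays correlated at 0.159. With the replicate number as a block 24 of the 34 genes were higher and 2 lower, Phyh (adjusted p = 0.0277) and Pxmp2 (adjusted p = 0.0228) being added, and 1802 and 3077 over all genes. In the block fit each of the 34 genes had the same SE (0.117). Its calls, here and above, therefore rest on a spread pooled over genes and not on each gene's own. Signals near 6 are close to background, which limits Acaa1b in wild-type cells, Acox2 and Ppara.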

Other observations

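The gene that follows Pex16 in RefSeq order, 1700029I15Rik, also rose, from 6.31 and 6.40 to 8.37 and 8.16 (1.91, SE 0.11, limma adjusted p = 7.59e-06). Large2, on the other side of Pex16, read 5.62 and 5.87 in wild-type against 5.91 and 6.07 in mutant cells, below the signal filter. These neighbours were looked at after the Pex16 value was seen. Slc22a14, which follows Acaa1b, read 6.93 and 6.98 in wild-type against 7.09 and 7.10 in mutant cells (0.14, limma adjusted p = 0.293).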
